A study of Mus musculus with 78 samples.

Results

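The genes described here are the brain's main cannabinoid receptor and the enzymes that make and break down its lipid ligands. They are 9 of the 55367 gene symbols counted: Cnr1, Cnrip1, Dagla, Daglb, Mgll, Abhd6, Abhd12, Napepld and Faah. They were listed by name, and all 9 are in both count tables, the one of male and the one of female mice. Poly(A) RNA had been sequenced in 78 libraries from 7 brain regions of 12 adult C57BL6/J mice. KO mice carry a constitutive deletion of Acss2, the gene of an acetyl-CoA synthetase that uses acetate, and WT mice do not. Per the labels the deletion was made with a pair of CRISPR guides in introns before exon 3 and after exon 7, and the founders were backcrossed. Every mouse of both genotypes had gone through drinking in the dark, a paradigm in which single-housed mice could take 15% ethanol in sessions of 2 or 4 h, in the first week beside water and in the second without it. No mouse without ethanol is among the groups, so nothing here measures an effect of ethanol. There were 3 mice of each sex and genotype. Among males, numbers 1, 2 and 10 were KO and 3, 12 and 13 were WT. Among females, numbers 4, 5 and 6 were KO and 11, 23 and 24 were WT. Both striatal and both hippocampal regions had 6 KO and 6 WT libraries, the amygdala and the cortex 6 KO and 5 WT, and the prefrontal cortex 4 KO (1 of them male) and 4 WT.

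Endocannabinoids are lipids made on demand, mostly by the cell that receives a synaptic input, and they act back on the terminal that gave it. The ligand 2-arachidonoylglycerol (2-AG) is made from diacylglycerol by the diacylglycerol lipases of Dagla and Daglb, and it is cleaved by the hydrolases of Mgll, Abhd6 and Abhd12. Anandamide, an N-acylethanolamine, can be released by the phospholipase of Napepld and is cleaved by the fatty acid amide hydrolase of Faah. Both ligands bind CB1, the receptor of Cnr1, which lowers transmitter release, and CRIP1a, the product of Cnrip1, binds the tail of CB1. In the striatum CB1 takes part in synaptic depression at inputs to projection neurons.

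Levels are given in CPM, the count of a gene divided by the total of its library and scaled to 1e+06 counts. The deeper set of 47 libraries (dorsal hippocampus, amygdala and both striatal regions) held 4454420 to 14487778 counts each, and the shallower set of 31 (ventral hippocampus, cortex and prefrontal cortex) held 629635 to 1228828. A count of 3, taken as the floor of a library, was 0.207 to 0.673 CPM in the deeper set and 2.44 to 4.76 CPM in the shallower set. Every member was counted in every library, with the lowest count, 10, for Napepld in a cortex library. Region was tied to depth, so regions were tested against each other only within a set, and levels from different sets are given side by side. Acss2 was 0.971 to 13.96 CPM in the 40 KO libraries and 35.9 to 73.8 CPM in the 38 WT libraries, so the genotype labels held in every library. In the prefrontal cortex library labelled female WT, mouse 23, there were 0 counts of Xist and 60 of Ddx3y, a gene of the Y chromosome, while the other 77 libraries matched their labelled sex.

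Several libraries stood apart in markers of their region. A list of 8 genes of striatal projection neurons had a median of 3934 CPM, summed over the list, in the ventral striatum and 4831 CPM in the dorsal striatum. It was 919 CPM in the ventral striatum of male KO mouse 10 and 384 CPM in that of male WT mouse 13. In the dorsal striatum it was 356 CPM in male KO mouse 10 and 196 CPM in female WT mouse 23, and these same libraries held 2135 and 2204 CPM of a list of 6 cortical excitatory neuron genes, against a dorsal striatum median of 352. A list of 5 hippocampal genes was 76.8 CPM in the ventral hippocampus of male KO mouse 10, where the region's median was 383. These 5 libraries, each under 25% of its region's median, are called low in region markers below, and that rule was set after the values were seen. For the amygdala the rule used 3 genes whose median was 144 CPM there and 170 CPM in the ventral striatum, so it could not part these regions. Amygdala libraries held 204 to 2047 CPM of the striatal list and 299 to 2125 CPM of the cortical list. No marker of the striatal list was at 0 in any striatal library. In the dorsal hippocampus of female WT mouse 23 the hippocampal list was 192 CPM against a median of 669, and 6 choroid plexus genes summed to 4819 CPM against a median of 61.7. The choroid plexus list also reached 9095 CPM in the amygdala of female KO mouse 5 (region median 113) and 6588 CPM in the dorsal striatum of female KO mouse 6 (region median 68.5). The ventral hippocampus of female KO mouse 6 held 3408 CPM of the striatal list, where that region's median was 124, and there Cnrip1 (54.0 CPM), Dagla (85.1), Napepld (11.4) and Faah (68.5) were each the lowest of the 12 libraries. The part of these markers in the members' levels was not tested, and in bulk tissue fewer cells of a type and less RNA per cell cannot be told apart.

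**Figure D1:**
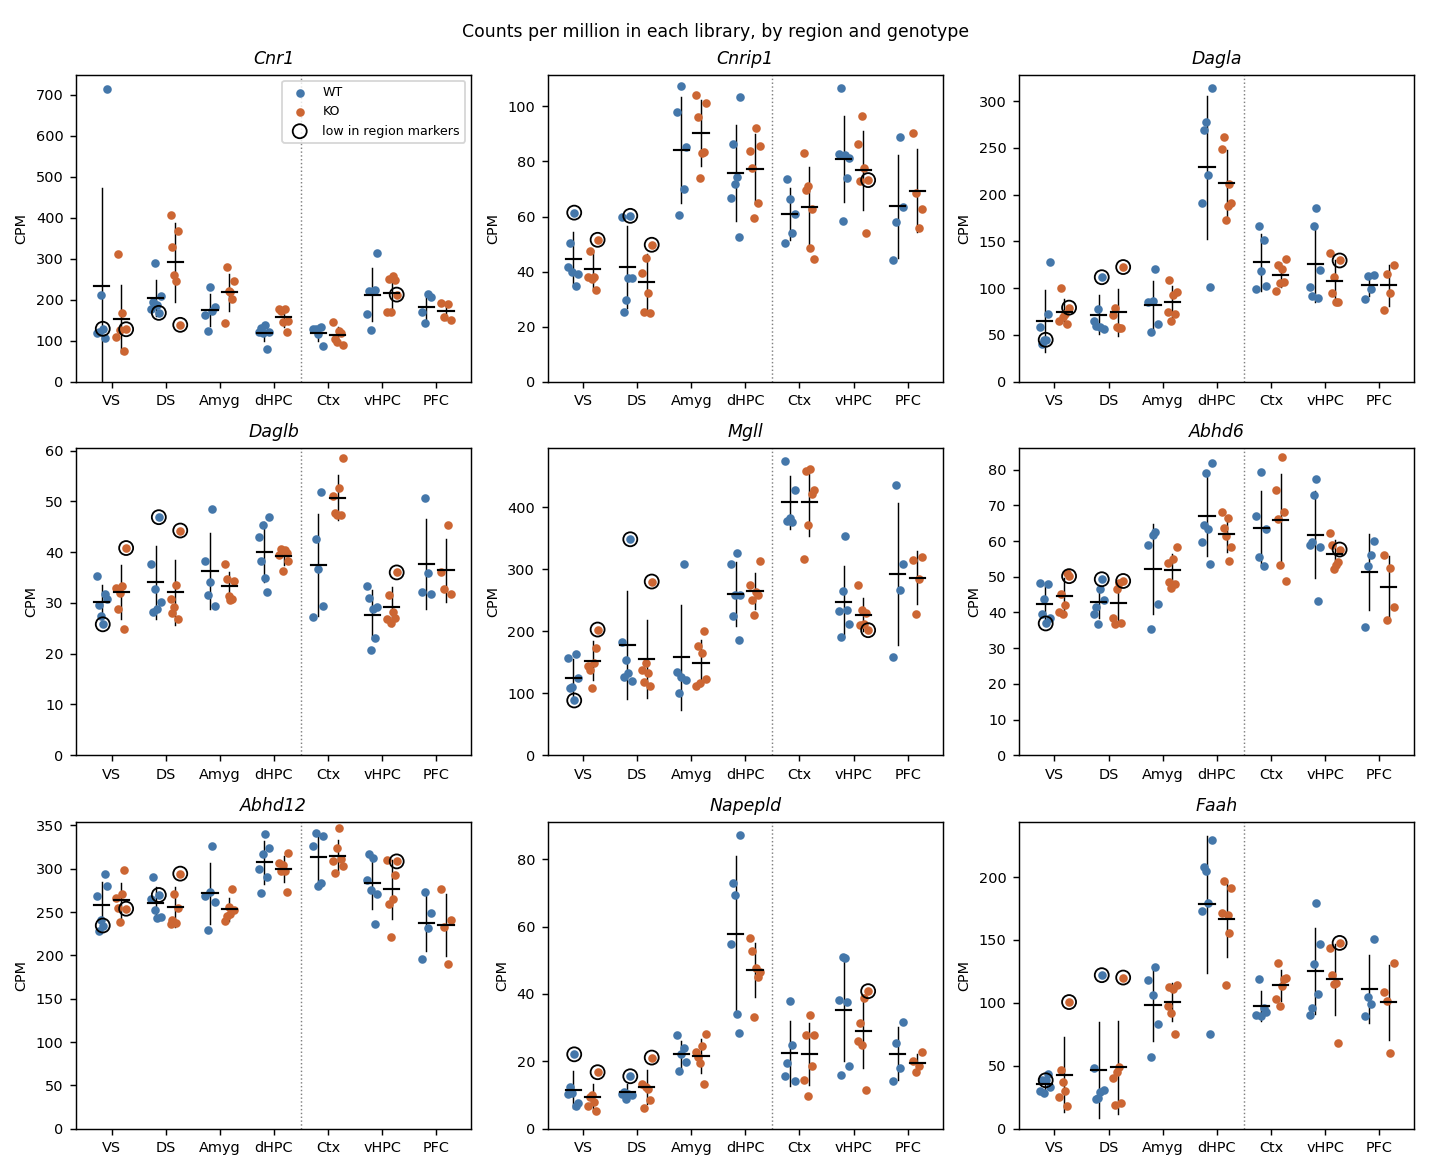
CPM (y axis, linear, from 0) of the 9 genes in each of 78 libraries, by region (x axis: VS and DS, ventral and dorsal striatum; Amyg, amygdala; dHPC and vHPC, dorsal and ventral hippocampus; Ctx, cortex; PFC, prefrontal cortex) and genotype. Horizontal lines are means, vertical lines SD, open circles the 5 libraries low in region markers, and the dotted line parts the deeper from the shallower libraries. Faah and Napepld are low in both striatal regions and highest in dHPC, and the VS library at the top of the Cnr1 panel holds 714 CPM.

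To compare the genes with each other, CPM was divided by the length of the principal GENCODE transcript in kilobases. On this scale of level per length Abhd12 was the highest of the 9 in all 7 regions, at 138 ± 17.2 CPM per kb (SD, n = 78 libraries). Mgll followed at 60.2 ± 26.7, then Cnrip1 at 38.9 ± 13.1, Cnr1 at 31.8 ± 15.5, Faah at 25.8 ± 13.5, Abhd6 at 24.2 ± 5.33, Dagla at 20.1 ± 10.4, Daglb at 7.60 ± 1.69 and Napepld at 6.26 ± 4.21. Divided by the length of all exons instead, Abhd12 and Mgll again came first, but Cnrip1 fell to rank 6 and Faah to rank 7, so the order in between depends on which transcript is assumed. Within each library the diacylglycerol lipase of Dagla exceeded that of Daglb per length in 78 of 78 libraries, with a ratio of 1.86 ± 0.67 in the ventral striatum and 4.56 ± 0.95 in the dorsal hippocampus (SD, n = 12 each). By the principal transcript Faah exceeded Napepld in 78 of 78 libraries, and Abhd12 exceeded Abhd6 in 78 of 78, by 3.94 to 8.10 times. By the length of all exons (7.834 kb for Faah, 3.956 kb for Napepld) Faah did not exceed Napepld in every library. In the ventral striatum of male WT mouse 13 they held 38.5 and 22.1 CPM, and Napepld was the higher on that scale.

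Abhd12 also had the smallest relative spread of CPM across libraries. Its CPM had a coefficient of variation of 12.5% over the 78 libraries, and the highest library was 1.82 times the lowest. Daglb and Abhd6 varied by 22.2% and 22.05%, Cnrip1 by 33.7%, Mgll by 44.3%, Cnr1 by 48.9%, Dagla by 51.7%, Faah by 52.6% and Napepld by 67.2%. Napepld spanned 16.4 times between its lowest and its highest library and Faah 12.95 times. These figures take in region, depth and counting error, which were not separated. The lowest count in a library was 181 for Abhd12, 35 for Abhd6, 17 for Daglb and 10 for Napepld.

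Each pair of regions within a set was tested by edgeR (quasi-likelihood) over all genes that passed a filter on low counts, with sex and genotype as terms. A gene is called where its Benjamini-Hochberg adjusted p is under 0.05. All 9 members passed the filter in each of the 9 comparisons, and 46 of these 81 member values were called. The libraries of the compared regions did not overlap in 7 of the 81, named below with their genes. How often that occurred over all genes was not counted, so it is given as a description. Ventral against dorsal striatum called 0 of the 9 members, where 13.3% of the 14593 genes tested were called. At an unadjusted p under 0.05 the count of members was again 0, and the DESeq2 Wald test also gave 0. Between ventral striatum and amygdala 4 members were called, all lower in the ventral striatum, where 46.8% of genes were called and 23.7% were lower. In the comparison of ventral striatum with dorsal hippocampus 8 were called, all lower in the ventral striatum (53.5% of genes called, 26.8% lower). For dorsal striatum against amygdala 4 were called, all lower in the dorsal striatum (55.2% of genes called, 27.6% lower). Dorsal striatum against dorsal hippocampus gave 9, with Cnr1 higher and the other 8 lower in the dorsal striatum (54.4% of genes called, 26.8% lower). Between amygdala and dorsal hippocampus there were 7, all lower in the amygdala (38.8% of genes called, 18.8% lower). The share of members called was therefore close to that of all genes in some of these comparisons and above it in those with the dorsal hippocampus, where the median member log2 difference was -0.92 from the ventral striatum, -0.68 from the dorsal striatum and -0.36 from the amygdala, against 0.01, 0.02 and -0.01 over all genes.

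In the shallower set, cortex against ventral hippocampus called 4 members, 3 higher and 1 lower in the cortex (29.4% of 10619 genes called, 15% higher). With library totals alone, or with no filter, the split turned to 2 higher and 3 lower, as Abhd12 was lost and Cnrip1 and Napepld were gained. Cortex against prefrontal cortex called 5, with 4 higher and 1 lower in the cortex (39.3% of genes called, 19.8% higher). Ventral hippocampus against prefrontal cortex called 5, with 4 higher and 1 lower in the ventral hippocampus (30.8% of genes called, 15.7% higher). This last count was the least steady, with 2 members called when library totals alone set the scale, 3 with no filter and 1 with the DESeq2 Wald test. Scaling by library totals alone also moved the split of all genes called higher and lower in 3 comparisons. It went from 1156 and 787 to 1574 and 579 in ventral against dorsal striatum, from 2922 and 2744 to 3593 and 2150 in amygdala against dorsal hippocampus, and from 2100 and 2072 to 1606 and 2773 in cortex against prefrontal cortex. With that scaling the members called higher and lower were 0 and 0, 0 and 6, and 3 and 1 in these comparisons.

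**Figure D2:**
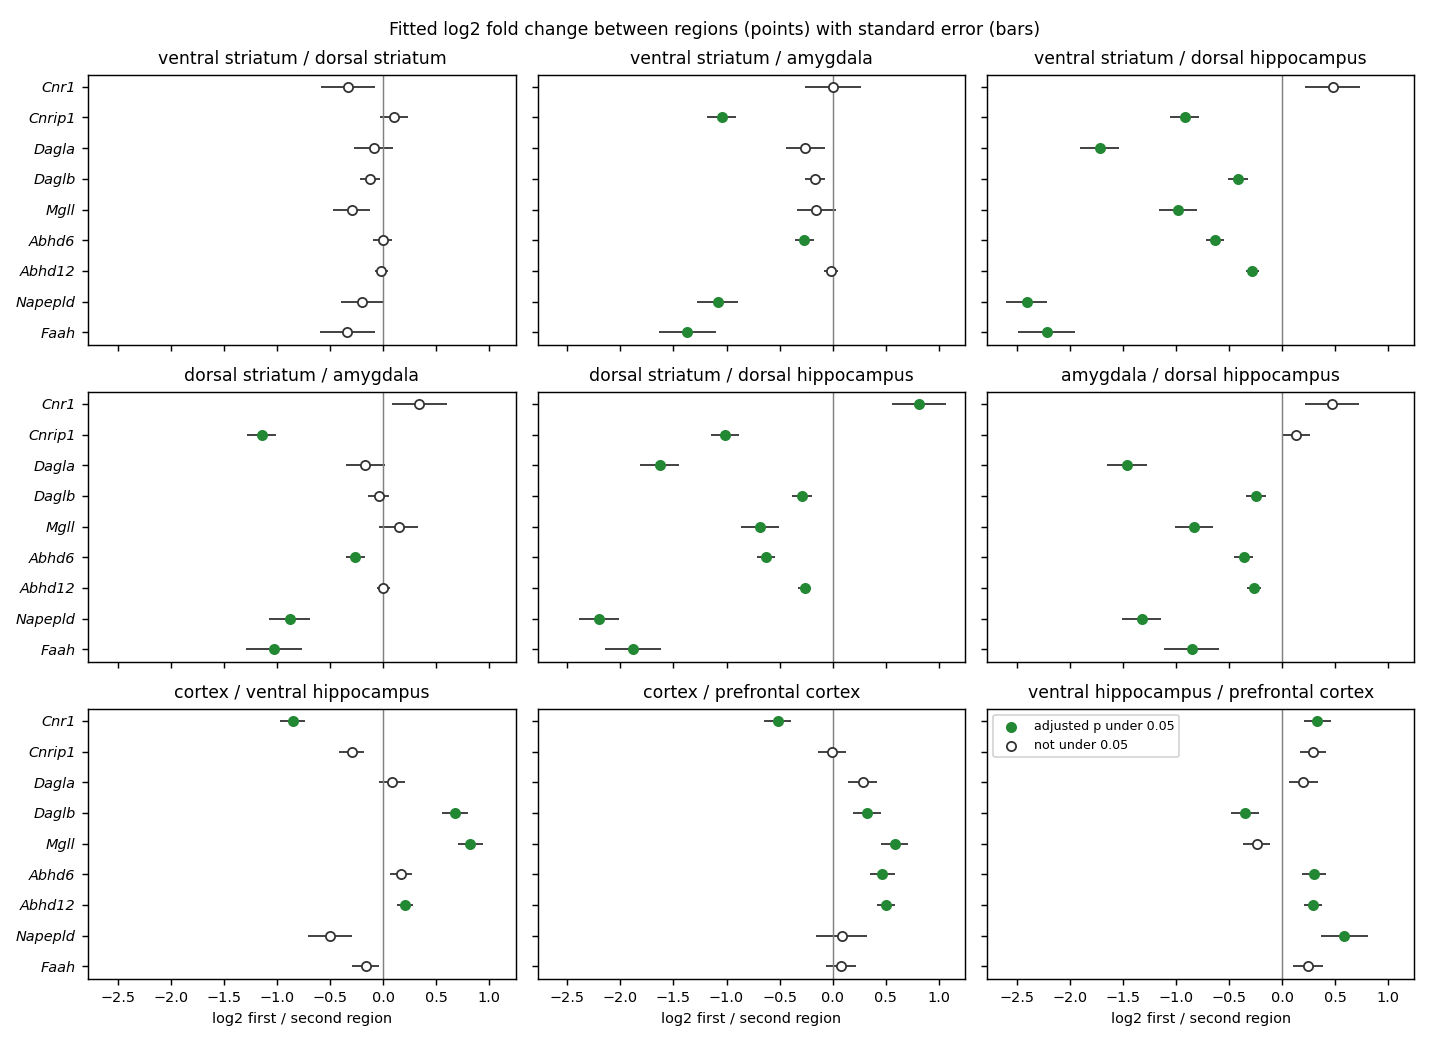
Fitted log2 fold change of the first over the second region (x axis) for each of the 9 genes (y axis) in the 9 comparisons within a depth set; bars are standard errors and filled points have an adjusted p under 0.05. Napepld and Faah reach -2.41 and -2.22 between ventral striatum and dorsal hippocampus, and 0 points are filled between the striatal regions.

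Cnr1, the CB1 receptor gene (GRCm38 chromosome 4, 33924593 to 33948831, plus strand), varied over a narrower range of regional means than Napepld or Faah. Over both genotypes its mean was highest in the dorsal striatum, at 247 ± 84.9 CPM (SD, n = 12), with libraries from 139 to 407 and a median of 227. Next came the ventral hippocampus at 215 ± 51.2 CPM (126 to 315, median 221, n = 12) and the amygdala at 198 ± 46.4 CPM (123 to 280, median 201, n = 11). The prefrontal cortex held 178 ± 26.4 CPM (143 to 213, n = 8), the dorsal hippocampus 138 ± 28.7 CPM (80.1 to 177, median 134, n = 12) and the cortex 116 ± 19.1 CPM (86.9 to 145, n = 11). Libraries of neighbouring regions in this order overlapped each time, and regions of different depth sets in it were not tested. In WT libraries alone the dorsal striatum, at 204 ± 44.1 CPM, came after the ventral striatum (233 ± 238 CPM) and the ventral hippocampus (212 ± 64.04 CPM, SD, n = 6 each), so its first rank rests on the KO libraries. In the ventral striatum the mean of 193 ± 175 CPM (n = 12) rested on female WT mouse 24, whose library held 714 CPM while the other 11 lay between 76.1 and 311 with a mean of 146 ± 64.9. That library's striatal markers summed to 7166 CPM, the highest of the 12 ventral striatum libraries, and their part in its Cnr1 level was not tested.

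Among the tests, Cnr1 was called higher in the dorsal striatum than in the dorsal hippocampus (log2 0.81 ± 0.25 SE, adjusted p 0.00637), and 11 of 12 mice had that direction. Without the ventral striatum library of mouse 24, an alternative chosen after the data were seen, Cnr1 was also called lower in the ventral than in the dorsal striatum (log2 -0.84, adjusted p 0.000669) and lower than in the amygdala (log2 -0.48, adjusted p 0.0183, where the value with all libraries was 0.00). That setting also called Cnr1 higher in the amygdala than in the dorsal hippocampus (log2 0.46, adjusted p 0.0241, edgeR). With all libraries that value was 0.47 and not called, and 10 of 11 mice had that direction. In the shallower set Cnr1 was lower in the cortex than in the ventral hippocampus (log2 -0.85 ± 0.12 SE, adjusted p 4.31e-07, 11 of 11 mice) and than in the prefrontal cortex (log2 -0.52 ± 0.13 SE, adjusted p 0.00169, 7 of 7 mice). It was higher in the ventral hippocampus than in the prefrontal cortex (log2 0.33 ± 0.12 SE, adjusted p 0.0372, 5 of 8 mice), a call lost with the mouse as a block (adjusted p 0.117), with library totals alone (0.0719) and with the DESeq2 Wald test (0.0507).

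Cnrip1, the gene of the CB1 tail-binding protein (chromosome 11, 17051586 to 17079371, plus strand), ran in another order. The amygdala was highest at 87.5 ± 15.2 CPM (60.6 to 107, n = 11), and the striatal regions were lowest, at 42.8 ± 8.29 CPM ventrally (33.4 to 61.4) and 38.9 ± 12.6 CPM dorsally (25.1 to 60.2, n = 12 each). All dorsal striatum libraries lay below all amygdala libraries. Cnrip1 was called lower in the ventral striatum than in the amygdala (log2 -1.05 ± 0.14 SE, adjusted p 3.87e-08) and in the dorsal striatum than in the amygdala (log2 -1.15 ± 0.14 SE, adjusted p 2.60e-09), in 11 of 11 mice each. Against the dorsal hippocampus the log2 differences were -0.92 ± 0.13 from the ventral and -1.02 ± 0.13 from the dorsal striatum (SE). So where Cnr1 was higher in the dorsal striatum than in the dorsal hippocampus, the gene of its binding partner was lower. In the shallower set Cnrip1 was not called, but with the mouse as a block it was called lower in the cortex than in the ventral hippocampus (adjusted p 0.0306; the call was also made in 4 other settings, with adjusted p from 0.031 to 0.0486) and higher in the ventral hippocampus than in the prefrontal cortex (adjusted p 0.0416).

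Dagla, whose product makes most brain 2-AG (chromosome 19, 10245265 to 10304877, minus strand), stood out in the dorsal hippocampus. There it was 221 ± 57.5 CPM (SD, n = 12), with libraries from 101 to 314 and a median of 216. The cortex (120.2 ± 22.3 CPM, n = 11), the ventral hippocampus (117 ± 32.8, n = 12) and the prefrontal cortex (103 ± 16.2, n = 8) followed, and the amygdala (83.4 ± 20.6, n = 11), dorsal striatum (73.0 ± 22.1) and ventral striatum (69.8 ± 24.9, n = 12 each) were lowest. The lowest dorsal hippocampus library was that of female WT mouse 23, and without it the region's libraries lay above all of the other 35 libraries of the deeper set. Dagla was called 3.29-fold lower in the ventral striatum (log2 -1.72 ± 0.19 SE, adjusted p 1.98e-10, 12 of 12 mice), 3.10-fold lower in the dorsal striatum (log2 -1.63 ± 0.19, 11 of 12 mice) and 2.76-fold lower in the amygdala (log2 -1.46 ± 0.19, 10 of 11 mice) than in the dorsal hippocampus. The other 6 comparisons did not call it, but without the ventral striatum library of mouse 24 Dagla was also called lower in the ventral striatum than in the amygdala (adjusted p 0.049).

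Daglb, the second diacylglycerol lipase gene (chromosome 5, 143464584 to 143505942, plus strand), moved over a narrower range, from 28.5 ± 4.22 CPM in the ventral hippocampus (20.6 to 36.01, n = 12) to 44.7 ± 9.89 CPM in the cortex (27.2 to 58.6, n = 11). It was higher in the cortex than in the ventral hippocampus (log2 0.67 ± 0.12 SE, adjusted p 3.66e-05, 10 of 11 mice). Against the dorsal hippocampus it was lower in the ventral striatum (log2 -0.41 ± 0.09), the dorsal striatum (log2 -0.29 ± 0.09) and the amygdala (log2 -0.25 ± 0.09, adjusted p 0.0344). The amygdala call was lost with library totals alone (adjusted p 0.0752) and with no filter (adjusted p 0.0847). It was higher in the cortex (log2 0.33 ± 0.13, adjusted p 0.0441) and lower in the ventral hippocampus (log2 -0.35 ± 0.13, adjusted p 0.0403) than in the prefrontal cortex. The ventral hippocampus call was lost with no filter (adjusted p 0.1304) and with the DESeq2 Wald test (adjusted p 0.0736). The cortex call was lost with the mouse as a block (adjusted p 0.105), with library totals alone (0.133), with no filter (0.1397), with the DESeq2 Wald test (0.086) and without the prefrontal cortex library labelled female WT, mouse 23 (adjusted p 0.0631).

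Mgll, the gene of monoacylglycerol lipase, which cleaves most brain 2-AG (chromosome 6, 88724412 to 88828360, plus strand), was highest in the cortex. The 11 cortex libraries ran from 316 to 475 CPM with a mean of 408 ± 48.1 (SD), and the 12 ventral striatum libraries from 88.3 to 203 CPM with a mean of 139 ± 32.8. Between them lay the prefrontal cortex at 289 ± 79.9 CPM (n = 8), the dorsal hippocampus at 262 ± 40.02 CPM and the ventral hippocampus at 237 ± 44.04 CPM (n = 12 each). The dorsal striatum held 166 ± 73.2 CPM (n = 12) and the amygdala 153 ± 59.9 CPM (n = 11). Mgll was called higher in the cortex than in the ventral hippocampus (log2 0.82 ± 0.12 SE, adjusted p 7.60e-07, 11 of 11 mice) and than in the prefrontal cortex (log2 0.58 ± 0.13, adjusted p 0.000593, 6 of 7 mice). It was lower than in the dorsal hippocampus in the ventral striatum (log2 -0.98 ± 0.18, 12 of 12 mice), the dorsal striatum (log2 -0.68 ± 0.18) and the amygdala (log2 -0.83 ± 0.18). Per length, Mgll exceeded Dagla by 1.84 ± 0.50 times in the dorsal hippocampus and by 5.10 ± 1.05 times in the cortex (SD, n = 12 and 11), so the mRNA of the 2-AG hydrolase stood further above that of the synthase in the cortex.

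Abhd6, a membrane hydrolase of 2-AG (chromosome 14, 8002902 to 8056763, plus strand), ran from 42.8 ± 4.97 CPM in the dorsal striatum (n = 12) to 64.8 ± 11.4 CPM in the cortex (n = 11). All 12 libraries of each striatal region, at most 50.95 CPM, lay below all 12 dorsal hippocampus libraries, at least 53.6 CPM. Its log2 difference from the dorsal hippocampus was -0.63 ± 0.09 for each striatal region (SE, 12 of 12 mice) and -0.36 ± 0.09 for the amygdala. Abhd6 was also lower in both striatal regions than in the amygdala (log2 -0.27 and -0.26, each ± 0.09) and higher in the cortex than in the prefrontal cortex (log2 0.47 ± 0.12, 7 of 7 mice). The call in the ventral hippocampus over the prefrontal cortex had an adjusted p of 0.0481 and was lost with library totals alone (0.0888), with no filter (0.1003) and with the DESeq2 Wald test (0.0679).

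Abhd12, a hydrolase of 2-AG and of lysophosphatidylserine (chromosome 2, 150832493 to 150904741, minus strand), differed by small amounts that its narrow spread resolved. Its means lay between 236 ± 31.5 CPM in the prefrontal cortex (n = 8) and 314 ± 22.8 CPM in the cortex (SD, n = 11), and no library of the one overlapped the other. The cortex was higher by a log2 of 0.50 ± 0.09 (SE, adjusted p 1.76e-05, 7 of 7 mice). Ventral striatum, dorsal striatum and amygdala had nearly the same means, 261, 258 and 262 CPM, and each was lower than the dorsal hippocampus at 303 ± 19.96 CPM by a log2 difference of -0.28, -0.26 and -0.26 (each ± 0.06 SE). It was also higher in the cortex than in the ventral hippocampus (log2 0.21 ± 0.08, adjusted p 0.0365), a call lost with library totals alone and with no filter, and higher in the ventral hippocampus than in the prefrontal cortex (log2 0.29 ± 0.08, adjusted p 0.00687).

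The anandamide genes had the widest regional differences of the 9. Napepld (chromosome 5, 21662901 to 21701396, minus strand) was 52.4 ± 17.4 CPM in the dorsal hippocampus (28.4 to 87.0, median 50.2), against 10.5 ± 4.75 CPM in the ventral striatum (5.31 to 22.1, median 9.78) and 11.6 ± 3.83 CPM in the dorsal striatum (6.26 to 21.1, median 10.6, SD, n = 12 each). All dorsal hippocampus libraries lay above all striatal and all amygdala libraries. The ventral hippocampus held 32.1 ± 12.9 CPM (n = 12), and cortex, amygdala and prefrontal cortex lay at 22.2 ± 8.90, 21.8 ± 4.36 and 20.98 ± 5.57 CPM (n = 11, 11 and 8). Against the dorsal hippocampus Napepld was 5.30-fold lower in the ventral striatum (log2 -2.41 ± 0.19 SE, adjusted p 4.93e-14, 12 of 12 mice), 4.61-fold lower in the dorsal striatum (log2 -2.20 ± 0.19, 12 of 12 mice) and 2.499-fold lower in the amygdala (log2 -1.32 ± 0.18, 11 of 11 mice). It was also lower than in the amygdala in the ventral (log2 -1.08 ± 0.19) and the dorsal striatum (log2 -0.88 ± 0.19). The call of a higher level in the ventral hippocampus than in the prefrontal cortex (log2 0.59 ± 0.22, adjusted p 0.0435, 6 of 8 mice) was lost with the mouse as a block (adjusted p 0.0585), with library totals alone (0.0624), with the DESeq2 Wald test (0.063) and without the library low in hippocampal markers (adjusted p 0.0571).

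Faah (chromosome 4, 115967145 to 116017926, minus strand) followed nearly the same order, with the amygdala and the prefrontal cortex exchanged. It was 172 ± 42.4 CPM in the dorsal hippocampus (75.03 to 229, median 176, n = 12), 122 ± 30.1 in the ventral hippocampus (n = 12), 107 ± 14.4 in the cortex (n = 11), 106 ± 26.9 in the prefrontal cortex (n = 8) and 99.6 ± 21.2 in the amygdala (SD, n = 11). Ventral and dorsal striatum had 39.2 ± 20.96 CPM (17.7 to 101, median 34.99) and 47.7 ± 35.9 CPM (18.9 to 122, median 35.6, n = 12 each). Faah was called 4.65-fold lower in the ventral striatum (log2 -2.22 ± 0.27 SE, adjusted p 2.39e-09, 12 of 12 mice) and 3.68-fold lower in the dorsal striatum (log2 -1.88 ± 0.26, adjusted p 6.53e-08, 11 of 12 mice) than in the dorsal hippocampus. From the amygdala the differences were -1.37 ± 0.27 and -1.03 ± 0.26 on the log2 scale, and the amygdala was itself lower than the dorsal hippocampus (log2 -0.85 ± 0.26, adjusted p 0.0082).

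Across the 47 libraries of the deeper set, log2(CPM + 1) of Napepld and Faah had a Pearson correlation of 0.92, the closest of the 36 pairs of members, and 0.54 across the 31 libraries of the shallower set. These libraries share regions and mice, so the values describe the set and are no test. In the deeper set 26 of the 36 pairs had a correlation over 0.5, and in the shallower set 5 did. Cnr1 had a negative correlation with each of the other 8 members in the deeper set, from -0.35 with Abhd6 to -0.14 with Dagla. With Mgll it was -0.32 there and -0.74 in the shallower set, the lowest of all pairs. The shallower set did not repeat the negative sign for Cnrip1 (0.44), Napepld (0.15) and Faah (0.12).

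**Figure D3:**
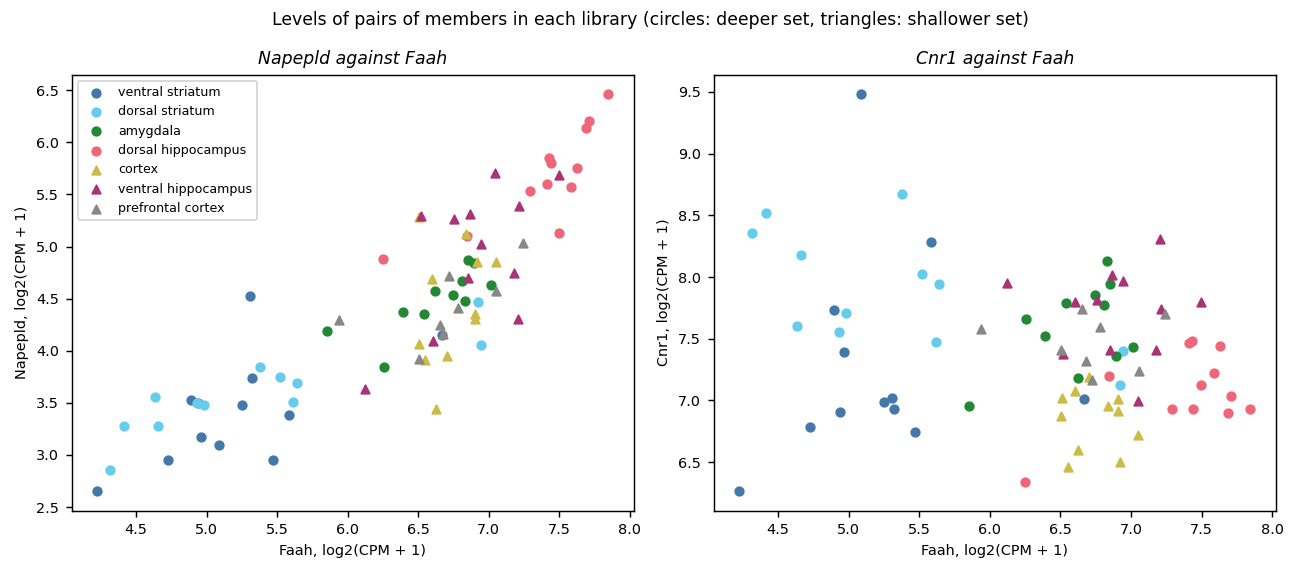
Levels in each of 78 libraries, as log2(CPM + 1) on both axes, of Napepld (left) and Cnr1 (right) against Faah, coloured by region. Napepld and Faah rise together from the striatal to the dorsal hippocampus libraries (Pearson correlation 0.92 over the 47 circles), while Cnr1 against Faah shows no such line (-0.26 over the same libraries).

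The promoters of the anandamide genes are shown because these genes varied together across regions, and that of Cnr1 because it did not vary with them. Each is the RefSeq window on the gene's own strand from 250 bases before to 50 after the start, on GRCm38.p6 (where a gene has several, the one nearest its GENCODE start), and capitals mark a GC box, searched as GGGCGG on both strands. The windows are chr5:21701573-21701872 on the minus strand for Napepld, chr4:116017875-116018174 on the minus strand for Faah and chr4:33924394-33924693 on the plus strand for Cnr1.
Napepld: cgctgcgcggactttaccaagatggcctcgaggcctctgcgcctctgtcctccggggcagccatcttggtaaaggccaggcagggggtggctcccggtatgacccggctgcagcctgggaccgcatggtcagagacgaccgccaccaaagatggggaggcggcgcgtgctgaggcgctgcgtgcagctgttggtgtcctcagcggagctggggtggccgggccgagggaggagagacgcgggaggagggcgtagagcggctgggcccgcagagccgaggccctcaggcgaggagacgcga
Faah: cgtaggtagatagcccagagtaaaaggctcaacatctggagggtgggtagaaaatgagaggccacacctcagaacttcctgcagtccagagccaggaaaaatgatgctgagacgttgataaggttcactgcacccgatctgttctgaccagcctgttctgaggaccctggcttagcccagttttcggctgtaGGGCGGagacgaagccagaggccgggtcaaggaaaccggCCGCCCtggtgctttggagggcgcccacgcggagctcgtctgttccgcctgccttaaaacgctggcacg
Cnr1: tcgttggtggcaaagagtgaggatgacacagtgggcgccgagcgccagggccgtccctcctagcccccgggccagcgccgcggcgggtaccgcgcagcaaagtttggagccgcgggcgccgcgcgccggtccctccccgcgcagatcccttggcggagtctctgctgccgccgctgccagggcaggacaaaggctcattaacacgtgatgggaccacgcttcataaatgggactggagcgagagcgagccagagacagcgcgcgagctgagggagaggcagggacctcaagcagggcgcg
The Faah window held the GC box letters at 2 places, and the Napepld and Cnr1 windows held them at 0, where 35.7% of 32851 RefSeq promoters of this length hold them. The letters TATAAA (in 13.6% of all) and the cyclic AMP response half-site TGACG (20.8%) were in 0 of these 3, and the E-box CACGTG (7.15%) occurred once, in Cnr1. Their GC content was 70.3% for Napepld, 57.7% for Faah and 69% for Cnr1, against a median of 52.7% over all promoters, and their CpG counts were 28, 16 and 33 against a median of 7. The RefSeq window matched by symbol for 7 of the 9 members.

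The libraries low in striatal markers carried some of the highest striatal values of the members. In the dorsal striatum Faah was 122 CPM in female WT mouse 23 and 120 CPM in male KO mouse 10, while the other 10 libraries lay between 18.9 and 48.8 CPM. Mgll in the same libraries was 348 and 280 CPM against 112 to 183 CPM in the others, and Dagla 112 and 123 CPM against 56.7 to 78.3 CPM. Their Cnr1 went the other way, at 168 and 139 CPM against 177 to 407 CPM. In the ventral striatum Faah reached 101 CPM in male KO mouse 10 against at most 47.01 CPM in the other 10, and in male WT mouse 13, the other such library, it was 38.5 CPM, inside their range. Mgll there was 203 CPM in mouse 10 and 88.3 CPM in mouse 13, above and below the others' range of 108 to 174 CPM. Napepld was above the others' range in each of these 4 libraries, at 15.6 to 22.1 CPM. Without them the striatal means were 33.1 ± 8.73 CPM ventrally and 32.98 ± 11.6 CPM dorsally for Faah, and 138 ± 24.02 and 137 ± 21.01 CPM for Mgll (SD, n = 10 each). In the region comparisons without the 5 libraries the members called numbered 0, 5, 8, 4, 9 and 7 in the deeper set, in the order given above, so the counts against the hippocampus stood without them.

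**Figure D4:**
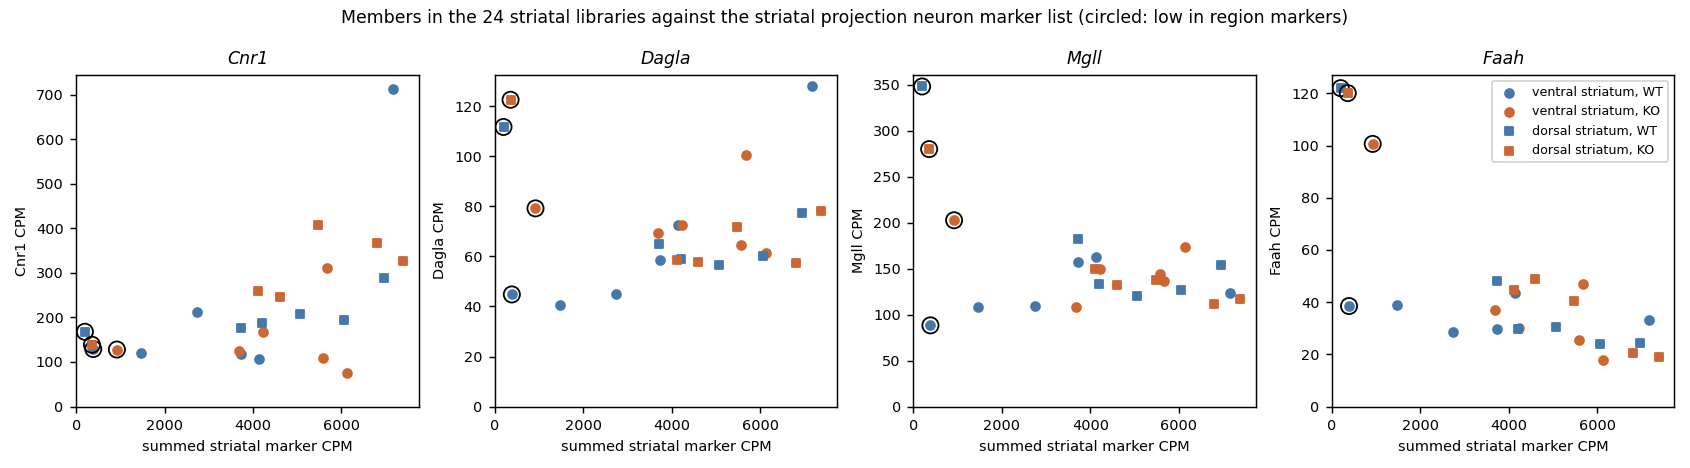
CPM (y axis) of Cnr1, Dagla, Mgll and Faah in the 24 striatal libraries against the summed CPM of 8 striatal projection neuron markers (x axis), by region and genotype; open circles are the libraries low in these markers. The circled dorsal striatum libraries hold 348 and 280 CPM of Mgll and 122 and 120 CPM of Faah, and the ventral striatum library at the upper right holds 714 CPM of Cnr1.

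Whether loss of ACSS2 changed these genes was tested first with both sexes of a region in the fit and sex as a term. All 9 members were tested in all 7 regions, and 0 of the 63 values were called by edgeR or by the DESeq2 Wald test. The share of all genes called was 0.00739% for ventral and 0.00723% for dorsal striatum, 0.00699% for amygdala, 0.00722% for dorsal and 0.00996% for ventral hippocampus, 0.0103% for cortex and 0.0949% for prefrontal cortex. Outside the prefrontal cortex this was 1 gene in each region, the deleted gene Acss2 itself. In the prefrontal cortex it was 10 genes, Acss2 among them. At an unadjusted p under 0.05 there were 3 of the 63 values, 1 each in the dorsal striatum (1.5% of genes), the dorsal hippocampus (2.69%) and the cortex (6.7%). There were 0 in the ventral striatum (7.31%), the amygdala (3.32%), the ventral hippocampus (5.04%) and the prefrontal cortex (8.11%). The values lay between -0.56 and 0.53 on the log2 scale with a median size of 0.11, and their standard errors between 0.08 and 0.55. The members' median log2 fold change of KO over WT ran from -0.11 in the prefrontal cortex to 0.08 in the ventral striatum, beside medians over all genes of 0.00 in each of these. In the prefrontal cortex markers of other tissue moved with genotype: the striatal list summed to 573 to 1656 CPM in KO and 184 to 322 CPM in WT, and 10 oligodendrocyte genes to 2655 to 11836 CPM in KO and 1808 to 3437 CPM in WT (means of 7541 and 2494). Their part in the prefrontal KO values of the members, by sex or pooled, was not tested.

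The receptor gene Cnr1 held 2 of those 3 values. In the dorsal hippocampus its 6 KO libraries spanned 121 to 177 CPM (median 161) and its 6 WT libraries 80.1 to 138 CPM (median 121). Of the KO libraries 5 were above all WT libraries, and the ranges overlapped. The log2 fold change was 0.42 ± 0.14 (SE), with an unadjusted p of 0.00992 and an adjusted p of 1.00 from edgeR. The lowest WT library was that of mouse 23 with its high choroid plexus genes, whose part in the difference was not tested. In the dorsal striatum Cnr1 was 139 to 407 CPM in KO (median 293) and 168 to 289 CPM in WT (median 191), with a log2 fold change of 0.53 ± 0.24 (SE, adjusted p 1.00). The amygdala value was 0.34 ± 0.20, and those of cortex, ventral hippocampus and prefrontal cortex were -0.06 ± 0.13, 0.06 ± 0.17 and -0.04 ± 0.15. The ventral striatum value of -0.56 ± 0.55 rested on the WT library of mouse 24, since KO libraries had a median of 127 CPM and WT libraries 125 CPM. Cnrip1 lay between -0.20 and 0.19 over the 7 regions.

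Among the 2-AG enzymes, Daglb in the cortex had the remaining value under an unadjusted p of 0.05. The 6 KO libraries there ran from 47.3 to 58.6 CPM and its 5 WT libraries from 27.2 to 51.8 CPM, and 1 WT library reached into the KO range. The log2 fold change was 0.44 ± 0.17 (SE, unadjusted p 0.0149, adjusted p 0.728, edgeR), and the counts behind it were 25 to 48 per library. Dagla lay between -0.22 and 0.22 over the regions. Mgll lay between -0.20 and 0.29, and the ventral striatum value of 0.29 ± 0.18 had the smallest adjusted p of the 63, 0.652 (edgeR). In that region the libraries low in striatal markers held 203 CPM of Mgll in KO mouse 10 and 88.3 CPM in WT mouse 13. These lay above and below the others' range of 108 to 174 CPM, and the part of the markers in the Mgll value was not tested. Abhd6 lay between -0.13 and 0.08 and Abhd12 between -0.10 and 0.04, and Abhd12, on the chromosome of the deleted gene, lies 4.61 Mb from Acss2.

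For the anandamide genes the KO values were -0.30 to 0.17 for Napepld and -0.17 to 0.22 for Faah. The fitted Napepld value was negative in 6 of 7 regions, at -0.01 or closer to 0 in amygdala and cortex, and 0 were called. It was furthest from 0 in the dorsal hippocampus (log2 -0.30 ± 0.26 SE), where KO libraries averaged 47.01 ± 7.98 CPM and WT libraries 57.7 ± 23.1 CPM (SD, n = 6 each). Faah there was 166 ± 29.8 and 178 ± 54.6 CPM. The highest region by mean was the same in KO and WT for 6 of the 9 members and the lowest for 4, with no test of the order. Cnr1 differed at both ends, with its highest mean in the dorsal striatum and its lowest in the cortex in KO, and in the ventral striatum and the dorsal hippocampus in WT. Its WT mean in the ventral striatum rested on mouse 24 (714 CPM). The WT median there was 125 CPM, against 191 CPM in the dorsal striatum. At the low end the WT means of dorsal hippocampus and cortex were nearly the same, at 118.2 and 118.7 CPM, and these regions differ in depth. Faah was highest in the dorsal hippocampus and lowest in the ventral striatum in both, 3.87-fold apart in KO and 5.04-fold in WT. The KO mean in the ventral striatum took in male KO mouse 10, low in striatal markers, at 101 CPM. The other KO libraries there held 17.7 to 47.01 CPM. That library raised the KO mean and so lowered the KO fold, and the difference between the folds was not tested.

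**Figure D5:**
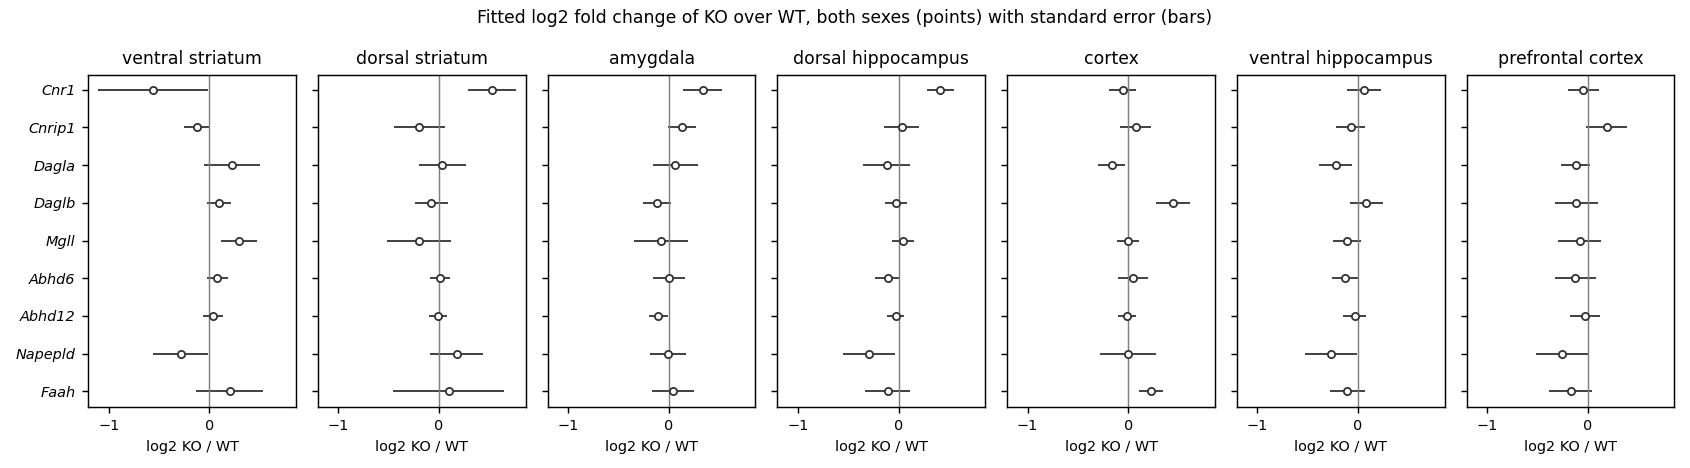
Fitted log2 fold change of KO over WT with both sexes (x axis, with standard error) for each of the 9 genes (y axis) in the 7 regions. Open points mark that 0 of the 63 values had an adjusted p under 0.05, and the values lie between -0.56 and 0.53.

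Within a sex there were 13 comparisons, each with 3 KO libraries and 2 or 3 WT libraries, and 0 of the 117 member values were called by edgeR or the DESeq2 Wald test. In males the share of genes called was 0.0% in both striatal regions, 0.00706% in the amygdala, 0.00721% in the dorsal hippocampus, 0.0103% in the cortex and 0.00996% in the ventral hippocampus. In females it was 0.0% in both striatal regions and the amygdala, 0.00707% in the dorsal and 0.00993% in the ventral hippocampus, 0.0398% in the cortex and 0.452% in the prefrontal cortex, where 1 of the 2 WT libraries is the one whose sex genes did not match its label. At an unadjusted p under 0.05 there were 6 of the 117. The comparisons with 0 of these were female ventral striatum (2.13% of genes), male dorsal striatum (1.91%), male and female amygdala (2.85% and 2.97%), female dorsal hippocampus (1.93%), female cortex (10.6%) and female ventral hippocampus (3.93%). In the male ventral striatum Dagla was 64.8, 79.2 and 101 CPM in KO mice 1, 10 and 2 and 58.7, 44.95 and 44.8 CPM in WT mice 3, 12 and 13. Each KO library was above each WT library. The libraries of mice 10 and 13 are those low in striatal markers, and the part of the markers in these values was not tested. Ranges of KO and WT were apart in 10 of the 117 single-sex member values. With 3 KO and 2 or 3 WT libraries ranges can be apart by chance, and the share over all genes was not counted. The ranges are therefore a description and no test. For Dagla in the male ventral striatum the log2 fold change was 0.76 ± 0.21 (SE, unadjusted p 0.00654, adjusted p 0.493, edgeR). In that comparison 9.84% of genes had an unadjusted p under 0.05. In females the same region held 69.2, 72.4 and 61.2 CPM in KO mice 4, 5 and 6 and 40.6, 72.6 and 128 CPM in WT mice 11, 23 and 24, and the genotypes overlapped.

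The other 5 such values were Cnr1 in the female dorsal striatum (log2 0.61 ± 0.19, 2.25% of genes) and in the male dorsal hippocampus (log2 0.45 ± 0.14, 3.53% of genes), Faah in the male cortex (log2 0.35 ± 0.16, 2.95%), Napepld in the male ventral hippocampus (log2 -0.57 ± 0.24, 8.08%) and Mgll in the female prefrontal cortex (log2 -0.45 ± 0.19, 9.08%), with adjusted p from 0.457 to 1.00. In the last of these the 3 KO libraries held 7200 to 11836 CPM of the oligodendrocyte list, the 2 WT libraries 1808 and 3437 CPM, and the part of these markers in the Mgll value was not tested. In the male prefrontal cortex, with 1 KO library, no test was made.

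One set of single-sex values turned on a library. In the female dorsal hippocampus Dagla was 173, 188 and 211 CPM in KO mice 4, 5 and 6 and 270, 101 and 314 CPM in WT mice 11, 23 and 24. Napepld was 33.3, 47.6 and 45.2 CPM in those KO mice and 73.0, 28.4 and 87.0 CPM in those WT mice. For both genes WT mouse 23 lay below and the other WT mice above all KO mice. With all 6 libraries the log2 fold changes were -0.32 and -0.64, and 0 members were called beside 0.00707% of genes. Without WT mouse 23 they were -0.67 (adjusted p 0.0427) and -0.99 (adjusted p 0.0388, edgeR), in a fit with 2 WT libraries. That fit called 2 members among 167 genes called in all, where 14142 genes were tested with all 6 libraries. The library left out is the one with 192 CPM of the hippocampal list (region median 669) and 4819 CPM of the choroid plexus list (region median 61.7). The part of these markers in the values was not tested.

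A term for a KO effect that differs by sex was fitted in 6 regions, without the prefrontal cortex. It called 0 of 54 member values, and 0.0% of genes in each region. At an unadjusted p under 0.05 there were 2 member values, 1 in the ventral striatum (3.84% of genes) and 1 in the dorsal striatum (4.76%), and 0 in amygdala (4.42%), dorsal hippocampus (1.33%), cortex (5.41%) and ventral hippocampus (6.63%). In the 4 deeper regions most member values lay on one side: the number of the 9 above 0 was 1 for ventral striatum, 1 for dorsal striatum, 0 for amygdala and 1 for dorsal hippocampus, with medians of -0.30, -0.35, -0.38 and -0.13 beside medians over all genes between -0.03 and 0.00. The members' medians by sex were 0.24, 0.22, 0.22 and 0.03 in males and -0.22, -0.25, -0.22 and -0.18 in females. The 9 members share their libraries, so this is a description and no test. The values with an unadjusted p under 0.05 were Faah in the ventral striatum (female minus male effect -1.33 ± 0.56 on the log2 scale, adjusted p 0.943) and Dagla in the dorsal striatum (-0.89 ± 0.40, adjusted p 0.769, edgeR). In the first, male KO mouse 10, low in striatal markers, held 101 CPM beside 25.4 and 47.01 CPM in the other male KO mice. In the second, male KO mouse 10 and female WT mouse 23, also low in these markers, held the highest values of their groups. The part of the markers in these values was not tested.

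A list of 27 other genes of the pathway was read for context. Of these 9 were under 1 CPM in every region on average, among them Cnr2, the receptor gene known mainly from immune cells (at most 0.346 CPM), and Trpv1, a cation channel that anandamide can open (0.204 CPM). Between 15 and 18 passed the filter in each KO comparison, and 0 were called in any of the 26 KO and interaction tests. In ventral against dorsal striatum 1 was higher and 2 were lower of 18 tested, and these were Gprasp1, whose product binds CB1 and sorts it for breakdown (1144 ± 235 against 687 ± 106 CPM, log2 0.70 ± 0.10 SE, adjusted p 6.29e-06), Naaa, an acid amidase of N-acylethanolamines (29.5 ± 4.60 against 36.9 ± 9.84 CPM, log2 -0.36 ± 0.11, adjusted p 0.0184), and Fabp5, a carrier of anandamide in cells (48.1 ± 7.22 against 59.3 ± 9.18 CPM, log2 -0.34 ± 0.10, adjusted p 0.016). The counts higher and lower in the ventral striatum were 2 and 7 against the amygdala and 4 and 6 against the dorsal hippocampus. In the dorsal striatum they were 4 and 8 against the amygdala and 5 and 5 against the dorsal hippocampus, and in the amygdala 2 and 4 against the dorsal hippocampus, each of 18 tested. The shares of all genes called in these 6 comparisons were 13.3%, 46.8%, 53.5%, 55.2%, 54.4% and 38.8%, so the list's 9, 10, 12, 10 and 6 of 18 outside the striatal pair were near the background. Of 16 tested in the shallower set, 4 were higher and 3 lower in the cortex than in the ventral hippocampus, 5 and 2 than in the prefrontal cortex, and 1 and 0 in the ventral hippocampus than in the prefrontal cortex, beside 29.4%, 39.3% and 30.8% of all genes. The list's median log2 differences against the dorsal hippocampus were -0.09, -0.01 and 0.02 from ventral striatum, dorsal striatum and amygdala.

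For each member the genes of most similar pattern were found among 10206 genes with at least 10 CPM on average in the deeper set, by the Pearson correlation of log2(CPM + 1) over its 47 libraries, which share regions and mice. Faah was nearest to Olfm1 (0.98) and Dlgap1 (0.97), for which the correlations over the 31 shallower libraries were 0.58 and 0.29. Napepld was nearest to Tmem108 (0.94, and 0.51 in the shallower set) and Ccdc85a (0.94 and 0.64). Dagla was nearest to Grin2a, an NMDA receptor subunit gene (0.95 and 0.33), and Pgbd5 (0.94 and 0.56), and Cnrip1 to Gprin1 (0.95 and 0.24) and Grhl1 (0.95 and 0.41). Mgll had Fbxo31 (0.88 and 0.75) and Kalrn (0.87 and 0.71), Abhd6 had Rilpl1 (0.90 and 0.63) and Sec14l2 (0.89 and 0.31), and Abhd12 had Them6 (0.81 and 0.69) and Psd (0.79 and 0.59). For Daglb they were Lrrc4 (0.84 and 0.36) and Eef2k (0.83 and 0.30). Cnr1 was nearest to Aff3 (0.84 and 0.39) and Ttc19 (0.76 and 0.21). These genes were picked for their values in the deeper set.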

How the data were processed

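The authors deposited raw read counts per gene symbol in a table for each sex, and per the submitters' processing notes STAR 2.5.2a, SAMtools 1.1, HTSeq 0.6.1, DESeq2 and R 4.0.2 were used with GRCm38 and mm10. Annotation, strand setting and filters are not given in the sources used here, so reads of overlapping or antisense genes may be shared. The tables were joined on symbol, and groups were taken from the labels. Fits used edgeR 4.0.16 (quasi-likelihood test, TMM, filterByExpr with a minimum count of 10 and total of 15) in R 4.3.3, with limma 3.58.1. DESeq2 1.42.0, other scalings, no filter, each mouse left out and the mouse as a block were alternatives. The mice are the biological replicates, and p-values of KO against WT cover the spread between these mice. The main region fits had no term for the mouse and took libraries of the same mouse as separate. Their p-values therefore cover the spread between libraries.

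The members, the lists and the tests were chosen with earlier results of these data known. The named genes are the 9 members in every comparison, Acss2, Xist and Ddx3y as checks, pathway genes called in a KO comparison, the 3 with the largest called change between striatal regions, and 2 genes of like pattern per member. Gene positions and lengths are from GENCODE M21 on GRCm38, and the promoters from RefSeq.

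Same-numbered libraries come from the same mouse per the labels, so the block pairs regions within a mouse. Residuals of same-mouse libraries correlated by 0.05 on average in the deeper set (69 pairs) and by -0.02 in the shallower (24 pairs).

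Depth was 629635 to 14487778 counts per library. The reads carry no molecular identifiers, so the floor of 3 counts covers counting error only. The fits were tested on simulated counts with 200 genes changed by a log2 of 1. Each gene was drawn around 1 mean, so no simulated library was low in region markers. Changes of the size of the members' KO values with both sexes (-0.56 to 0.53) were not simulated, so their recovery is not known. In the ventral striatum with both sexes 148 of 196 changed genes were called (13391 genes tested, 9 false), in the ventral hippocampus 148 of 186 (9796 genes, 5 false), in the male ventral striatum 51 of 195 (13458 genes, 1 false) and in ventral against dorsal striatum 185 of 200 (14452 genes, 11 false).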

Additional observations from a re-analysis of the deposited data

Results flagged for a closer look

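In each region and genotype with 4 to 6 libraries, a library was looked at again where its gap to the nearest other one was a large share of the group's range. Of 126 groups of members 16 were picked out. For independent groups with normally distributed values the rule would pick about 1 in 20, or 6.3. The members share their libraries, so 1 library can be picked for several members, and setting 16 beside 6.3 is no test. Female WT mouse 24 was highest in the ventral striatum for Cnr1 (714 CPM against 106 to 212 in the other 5 WT libraries) and Dagla (128 CPM against 40.6 to 72.6). Female WT mouse 23 was highest in the dorsal striatum for Dagla (112 CPM against 56.7 to 77.3), Mgll (348 CPM against 120.4 to 183), Napepld (15.6 CPM against 8.71 to 10.8) and Faah (122 CPM against 23.8 to 48.0). The same mouse was highest in the amygdala for Mgll (308 CPM against 99.8 to 135) and lowest in the dorsal hippocampus for Cnr1 (80.1 CPM against 118 to 138) and Faah (75.03 CPM against 173 to 229). Male KO mouse 10 was highest in the dorsal striatum for Dagla (123 CPM against 57.3 to 78.3), Mgll (280.1 CPM against 112 to 149) and Faah (120.1 CPM against 18.9 to 48.8), and in the ventral striatum for Faah (101 CPM against 17.7 to 47.01). Male WT mouse 13 was highest in the ventral striatum for Napepld (22.1 CPM against 6.72 to 12.4), and male WT mouse 12 in the dorsal striatum for Cnr1 (289 CPM against 168 to 208). Female WT mouse 11 was highest in the cortex for Faah (118.8 CPM against 90.0 to 96.1). Of the 16 values, 9 come from the 5 libraries low in region markers.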

How the results depend on the processing

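The count of members called changed by more than 1.5 times in few settings. In the female dorsal hippocampus it was 0 to 2 when each mouse was left out in turn, with 2 without WT mouse 23. In ventral against dorsal striatum it was 1 without the ventral striatum library of female WT mouse 24 (Cnr1). In ventral hippocampus against prefrontal cortex it was 2 with library totals alone, 3 with no low-count filter and 1 with the DESeq2 Wald test. The log2 difference of Cnr1 between ventral striatum and amygdala turned from 0.00 to -0.48 without that library of mouse 24. Except as stated for the single fit above, leaving out a mouse called no member in any KO comparison. With the mouse as a replicate block the members called numbered 5 in cortex against ventral hippocampus, 4 in cortex against prefrontal cortex and 4 in ventral hippocampus against prefrontal cortex, through the 5 calls given in the report, and no other member's call between regions changed. KO and WT are different mice, so their comparisons have no block. Among single member values between regions, 12 gained and 21 lost a call over all alternatives tried, 1 reversed and 533 did none of these. Leaving out the 5 libraries low in region markers or the one of mouse 24 was chosen after the data were seen. Depth limits the shallower regions most, where Napepld and Daglb rest on 10 to 62 counts per library.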
